A study of Homo sapiens with 2 samples.

Results

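The genes described here build and run the microtubule cytoskeleton: tubulins, the cofactors that fold them, stathmins, microtubule-associated proteins (MAPs) and kinesin motors. They were taken by platform annotation symbol, as symbols that start with TUBA, TUBB, TUBG, STMN, MAPRE or KIFC, or with KIF and a digit, plus 15 genes named one by one (TBCA to TBCE, MAP1A, MAP1B, MAP1S, MAP2, MAP4, MAP7, MAPT, TPPP, TPPP3 and CKAP5). This gave 90 of the 20046 genes on the array and 134 of its 47323 probes; 1 pseudogene, TUBA3FP, was left out. Read as written, the rule takes in TUBAL3 and the gamma tubulin complex genes TUBGCP2 to TUBGCP6. The set was drawn up with differences between these arrays already known, so its values are given as a description.

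RNA of the human gastric cancer cell line SNU216 was hybridized to Illumina BeadChip expression arrays. A control line carrying a non-silencing short hairpin RNA (shRNA) was set against a line in which the transcription factor TEAD4 was knocked down. Each group has 1 array. No replicate check and no test between the groups was possible, and the labels do not say how many hairpins, clones or cultures were used or how long after delivery the cells were taken. The number of arrays limits the precision of every value.

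Microtubules are polymers of alpha and beta tubulin dimers that grow and shrink from their ends, and gamma tubulin complexes nucleate them. Stathmins bind free tubulin dimers and favour shrinkage, while MAPs bind along the polymer and stabilize it. Kinesins use ATP to walk along microtubules with cargo, to slide them in the mitotic spindle or to take their ends apart. In epithelial tumour cells these genes serve both cell division and the transport of vesicles, and several family members, such as TUBB3, STMN2, STMN3, STMN4, MAP2 and MAPT, are best known from neurons.

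Sequences were read from RefSeq (GRCh38.p14), whose promoter windows run from 250 bases before to 50 bases after each annotated gene start. They were found for 77 of the 90 genes, some with several starts. STMN3 and TUBB3 are shown first, because their signals were past 1.5-fold higher in the knockdown under each of the 9 alternative settings tried. Both have 1 probe, detected on both arrays, so alternatives that change the probe, the detection filter or the gene set could not move their values. STMN3 lies at chr20:63652717-63653016 on the minus strand. Of the 2 windows listed for TUBB3, the one shown lies at chr16:89923092-89923391 on the plus strand. Capitals mark GC boxes (GGGCGG or its reverse complement CCGCCC) and CCAAT boxes (CCAAT or ATTGG), and no marked boxes overlap.
STMN3: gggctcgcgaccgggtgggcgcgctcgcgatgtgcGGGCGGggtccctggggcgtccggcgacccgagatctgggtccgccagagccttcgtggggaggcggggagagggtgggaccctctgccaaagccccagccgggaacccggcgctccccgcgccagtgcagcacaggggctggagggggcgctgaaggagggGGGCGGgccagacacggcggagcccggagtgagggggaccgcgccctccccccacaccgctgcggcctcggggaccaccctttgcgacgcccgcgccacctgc
TUBB3: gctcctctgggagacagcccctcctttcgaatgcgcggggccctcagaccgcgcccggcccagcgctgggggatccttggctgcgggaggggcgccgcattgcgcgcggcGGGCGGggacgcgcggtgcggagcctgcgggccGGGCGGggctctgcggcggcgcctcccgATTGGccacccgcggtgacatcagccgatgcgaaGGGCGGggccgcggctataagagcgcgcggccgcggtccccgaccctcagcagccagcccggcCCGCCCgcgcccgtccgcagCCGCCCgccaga
The STMN3 window holds 2 GC boxes and 0 CCAAT boxes at 77.7% G and C, and the TUBB3 window shown holds 5 GC boxes and 1 CCAAT box at 79.0%. The TUBB3 window not shown, at chr16:89921675-89921974, holds 0 GC boxes and 0 CCAAT boxes at 65.3%. GC boxes occurred in 83.1% of the 77 genes and in 48.3% of all 27305 genes with a window, and CCAAT boxes in 57.1% and 39.7%. The members are all protein-coding and have 108 windows, while the set of all genes was not limited to protein-coding genes and has 35116 windows. The shares of any motif are therefore not taken over like sets. The core letters that TEAD factors bind, GGAATG or CATTCC, occurred in 14 of the 77 genes (18.2%), against 16.7% of all genes with a window. Neither STMN3 nor TUBB3 has these letters in a listed window, nor does any other of the 7 members that differed by 1.5-fold or more; this says only that the letters are not in these windows.

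The mitotic kinesins shared another run of letters. TTTGAA or its reverse complement TTCAAA is the core of the cell cycle homology region (CHR), known from promoters of genes expressed in the G2 and M phases. It stood in 9 of 14 mitotic kinesin genes (64.3%), against 1 of 19 other kinesins with a window (5.26%). Over all genes with a window, again not limited to protein-coding genes, the share was 18.2%. The 30 bases around the match nearest to the end of each window are shown because none of the detected mitotic kinesins was 1.5-fold apart on the arrays. Of all detected genes, 16.4% were. Capitals mark the CHR letters; the windows are KIF11 at chr10:92593090-92593119 (plus strand), KIF14 at chr1:200620733-200620762 (minus strand), KIF15 at chr3:44761747-44761776 (plus strand), KIF18A at chr11:28108149-28108178 (minus strand), KIF20B at chr10:89701608-89701637 (plus strand), KIF23 at chr15:69414282-69414311 (plus strand), KIF4A at chrX:70290058-70290087 (plus strand), KIF4B at chr5:155013746-155013775 (plus strand), KIFC1 at chr6:33391815-33391844 (plus strand).
KIF11: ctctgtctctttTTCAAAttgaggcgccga
KIF14: gcggggcgcccaTTCAAAttgcggccttct
KIF15: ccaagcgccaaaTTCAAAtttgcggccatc
KIF18A: aagtggcttgggTTTGAAtattgtggttga
KIF20B: ccattgtttgaaTTTGAAaacggtaacatc
KIF23: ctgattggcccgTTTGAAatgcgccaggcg
KIF4A: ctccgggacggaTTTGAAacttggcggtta
KIF4B: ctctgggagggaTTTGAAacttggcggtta
KIFC1: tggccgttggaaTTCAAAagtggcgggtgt
KIF4B is a paralog of KIF4A. The KIF20B window holds 2 matches, of which the first is left in lower case. A match is a description of the letters and not of a site in use.

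At a detection p under 0.01, each array detected 77 of the 134 member probes. By its brightest probe, which stands for the gene hereafter, 58 of the 90 members were detected on at least 1 array and 57 on both, and the other 32 were detected by no probe. Of all probes, 40.0% passed in the control and 39.4% in the knockdown, but these include probes without a gene symbol. Of probes with 1 gene symbol, 48.2% and 47.7% passed, against 57.5% of member probes on each array. By the brightest probe, 56.4% of all genes passed in the control and 55.6% in the knockdown, against 64.4% and 63.3% of members. TEAD4 itself went from a normalized log2 signal of 10.11 in the control to 7.55, 5.89-fold lower in the knockdown; of its other probes, 1 was detected in the control alone and 1 on neither array. Markers of the labelled epithelial cell type were present: 9 of 10 were detected, including EPCAM, KRT8 and KRT19, while KRT18 was not detected. Of the 9, CDH1 was 1.58-fold higher and KRT7 1.66-fold lower in the knockdown, and the other 7 were within 1.5-fold. That is 22.2% past 1.5-fold, against 16.4% of all detected genes.

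By the brightest probe, 51 of the 58 detected microtubule genes were within 1.5-fold, and STMN3 had the largest difference. Over all detected genes, 9794 of 11720 were within 1.5-fold. Of the 58 detected members, 1 was at least 2-fold higher in the knockdown and 0 were at least 2-fold lower, against 1.81% and 2.34% of all 11720 detected genes. At the lower threshold of 1.5-fold, 3 members were higher (STMN3, TUBAL3 and TUBB3) and 4 were lower (MAP2, KIF17, KIF3C and KIF13A). Array-wide, 7.24% of the detected genes were higher and 9.20% lower by that much. Together the 7 members are 12.1% of those detected, against 16.4% of all genes. These counts use the normalized differences themselves, also for genes detected on 1 array only; with such genes set to the bound that the detection limit allows, the 7 members remain (12.1%) and the share of all genes is 13.3%. The median log2 difference, knockdown minus control throughout, was -0.06 over the members and -0.04 over all detected genes. The median size of the difference without its sign was 0.15 for members and 0.24 for all detected genes.

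**Figure D1:**
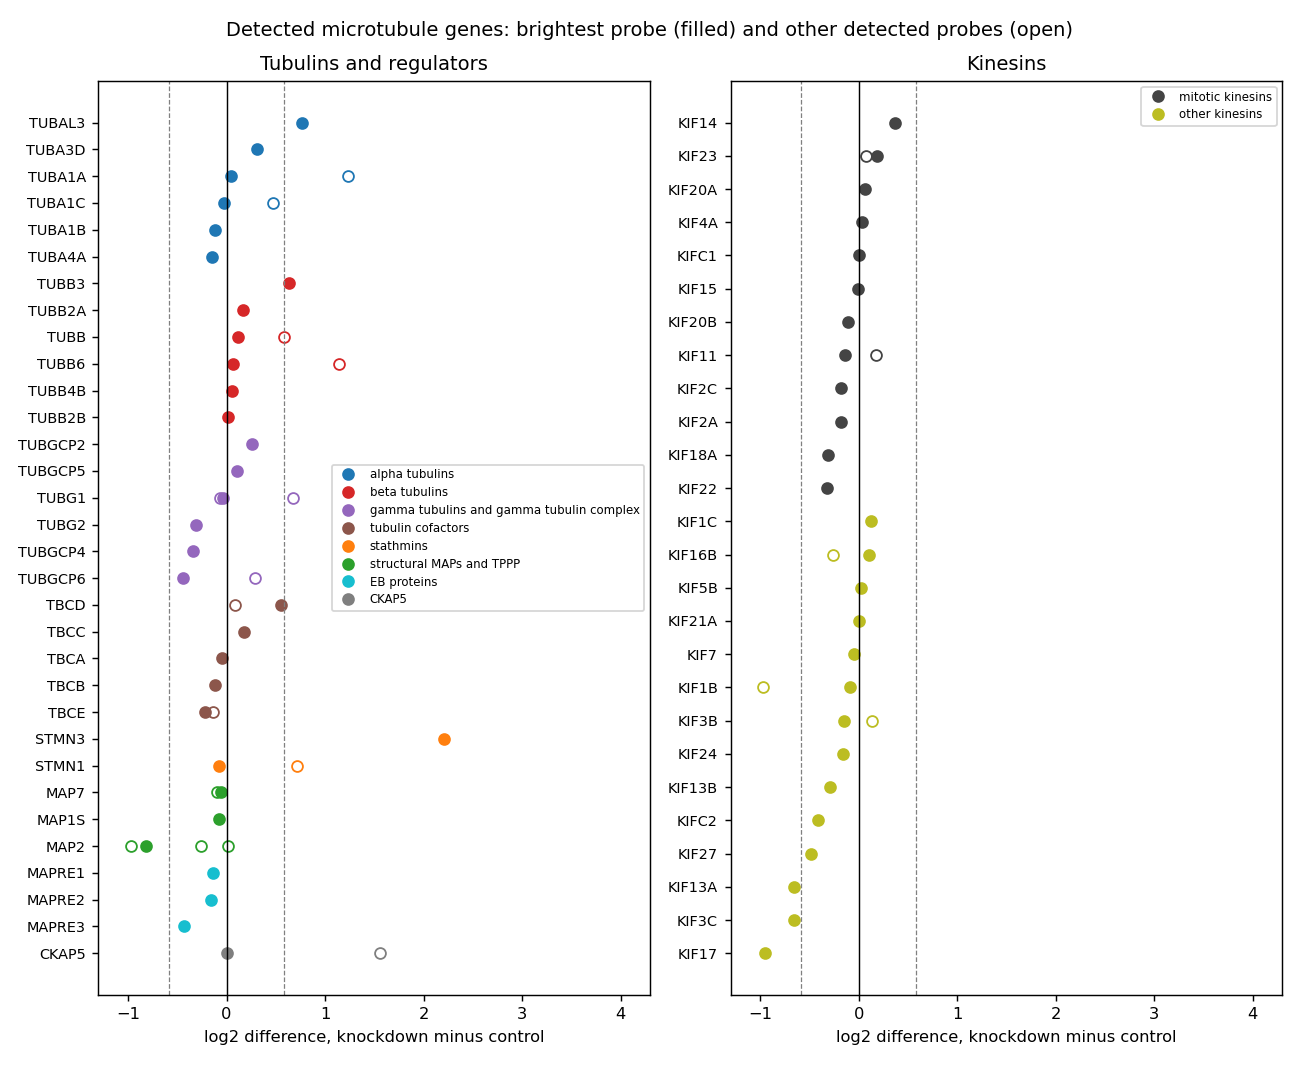
Log2 difference between the knockdown and the control array for the 58 detected microtubule genes, 32 tubulins and regulators at left and 26 kinesins at right, grouped by role. Filled points are each gene's brightest probe, open points its other detected probes, and dashed lines mark 1.5-fold. Probes detected on 1 array only are drawn at their normalized difference; STMN3 at 2.20 stands alone, and the mitotic kinesins lie between -0.32 and 0.37.

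How far 2 probes of the same gene differ is the only measure of spread these arrays offer. The 2 brightest probes of 2497 genes, all detected on both arrays, gave a standard deviation (SD) of 0.32 for the log2 difference of a probe. The platform annotation ties both probes to the same transcript in 1632 of these genes (SD 0.31) and not in the other 865 (SD 0.34), so the spread can also hold differences between transcripts. Probes of an array share its RNA and hybridization, so it holds no difference between cultures. The 16 members with such probes gave an SD of 0.42, and in 10 of them (62.5%) both probes went the same way, against 64.2% of all 2497 genes. Among the 2497, the SD was 0.28 in the 1249 genes with the brighter pairs and 0.35 in the 1248 with the dimmer pairs.

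Among the stathmins, STMN3 carried the largest difference of the set. Its signal as deposited before normalization was 1841 in the control against 8036 in the knockdown. On the normalized log2 scale it went from 10.81 to 13.01. That is 4.60-fold higher, a log2 difference of 2.20, which placed STMN3 5th from the top among 10717 genes detected on both arrays. In the deposited normalized table the difference was 2.10. STMN3 has 1 probe, so no other probe bears on it. STMN1, the widely expressed stathmin, had 12.80 in the control and 12.73 in the knockdown by its brightest probe (-0.07). A dimmer STMN1 probe, annotated to another transcript, had 7.43 and 8.15 (0.72), and the other 3 were not detected. The neuronal stathmins STMN2 and STMN4 and the stathmin domain gene STMND1 were detected on neither array.

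Since STMN3 is known from neurons, markers of neurons and neuroendocrine cells were read as well. Of 16 such markers 6 were detected, and these summed to a normalized signal of 352 on the control and 402 on the knockdown array. Each sum holds the offset of 16 added to every gene, and the values of genes not detected on that array. For scale, the 9 detected epithelial markers summed to 99379 and 98218. Of the 6, 3 had positive and 3 had negative differences by the brightest probe. The synaptic vesicle protein gene SYP was detected in the knockdown alone and was at least 2.01-fold higher there, and the RNA-binding protein gene ELAVL3, also detected there alone, at least 1.29-fold higher. CHGA, a granule protein of neuroendocrine cells, was detected in the control alone, with a bound of at least 1.10-fold lower on the knockdown array. DCX, a microtubule-binding protein of young neurons, gave opposite answers by probe. Its brightest probe was detected in the control alone, with a bound of at least 1.36-fold lower on the knockdown array. Another dim DCX probe was detected in the knockdown alone, with a bound of at least 1.03-fold higher there. The neurofilament gene NEFH (-0.40) and the synapsin gene SYN1 (0.27) were detected on both arrays. The defining neuronal markers RBFOX3, SNAP25, SYT1, NEFL, NEFM, INA, GAP43 and ELAVL4 were not detected on either array, nor were CHGB and NCAM1. The part of these genes in the STMN3 difference was not tested. In RNA of a whole culture, a change in the number of cells that make a transcript and a change in its amount per cell cannot be told apart.

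Markers of further cell types were read in the same way, with the same offset and undetected values in each sum. Of the leukocyte markers 4 of 7 were detected, with PTPRC, CD3E and CD14 not detected, and the 4 summed to 374 on the control and 301 on the knockdown array. The 4 of 6 detected fibroblast markers summed to 337 and 208, with COL3A1 and PDGFRB not detected. Of these, LUM and DCN, which encode matrix proteoglycans, were detected in the control alone and had bounds of at least 2.41-fold and 1.21-fold lower on the knockdown array, while COL1A1 (-0.29) and COL1A2 (0.06) were detected on both arrays. Of the endothelial markers, 0 of 4 was detected. The part of these genes in the differences described here was not tested.

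The alpha tubulins, which pair with beta tubulins in the dimer, were detected for 6 of 10 genes. TUBA1A had a log2 signal of 14.93 in the control and 14.97 in the knockdown, TUBA1C had 14.89 and 14.86, and TUBA1B had 14.70 and 14.58. These widely expressed alpha tubulins were thus within 0.12 of equal by their brightest probes. For TUBA1C the choice of probe was close to a tie, and its other probe had 14.59 and 15.07 (0.48). A dimmer TUBA1A probe differed by 1.24. TUBA4A differed by -0.14 and TUBA3D by 0.31. TUBAL3, an alpha tubulin-like gene, was dim, with 5.85 in the control and 6.61 in the knockdown, 1.70-fold higher (0.77). In the deposited normalized table, where dim probes are pulled closer together, TUBAL3 differed by 0.39, which is under 1.5-fold. TUBA3C, TUBA3E, TUBA4B and TUBA8 were not detected. Alpha tubulin transcripts are near-identical in their coding parts, and cross-hybridization between their probes was not tested.

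The beta tubulins were detected for 6 of 9 genes, and all 6 had positive differences by the brightest probe, with a median of 0.09. Over all detected genes, 5348 of 11720 had positive differences. TUBB3, the beta tubulin isotype of neurons that many carcinoma cells also make, had 12.28 in the control and 12.91 in the knockdown, 1.55-fold higher (0.63). TUBB3 has 1 probe, so no other probe bears on it. The remaining 5 ranged from 0.02 for TUBB2B to 0.17 for TUBB2A, all under the SD per probe of 0.32. TUBB, the main beta tubulin of dividing cells, had 14.29 and 14.40, and TUBB4B had 14.26 and 14.32. TUBB1, the isotype of platelets, TUBB4A, an isotype of the brain, and TUBB8, the isotype of oocytes, were not detected.

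**Figure D2:**
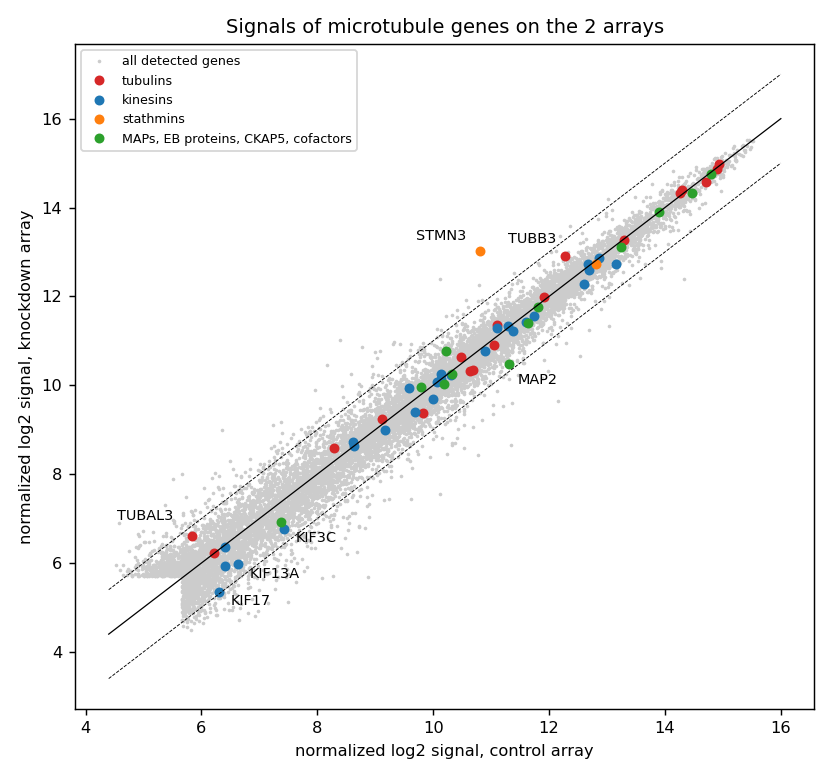
Normalized log2 signal on the control array (x axis) against the knockdown array (y axis) for all 11720 detected genes in grey and the 58 detected microtubule genes in colour. The solid line marks equal signals and the dashed lines 2-fold; STMN3 (10.81 and 13.01) lies above the upper dashed line, and the 7 members past 1.5-fold are named.

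For several tubulins a dimmer probe stood higher in the knockdown than the brightest one. A second TUBA1A probe had 11.07 in the control and 12.31 in the knockdown (1.24), although the brightest differed by 0.04. A second TUBB6 probe had 6.74 and 7.88 (1.14) against 0.07, and a second TUBB probe 13.08 and 13.66 (0.58) against 0.11. For each of these genes the annotation ties both probes to the same transcript. The second TUBA1C probe, only 0.05 dimmer in mean log2 signal, gave 0.48 against -0.03. The third of the detected TUBG1 probes gave 0.68, where the brighter ones gave -0.03 and -0.07. CKAP5, the microtubule polymerase also called ch-TOG, had 13.90 on both arrays by its bright probe, while its dim probe was detected in the knockdown alone and was at least 2.18-fold higher there.

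Counted over the 16 members with 2 probes detected on both arrays, the dimmer probe of the pair was higher than the brighter one by 0.5 or more in 5 (31.2%) and lower by that much in 1 (6.25%). Over all 2497 such genes these shares were 16% and 7.05%, so the dimmer probe leaned the same way array-wide. At the level of single probes, 8 of the 78 detected member probes were at least 1.5-fold higher and 6 lower (17.9% together), against 9.17% higher and 9.14% lower (18.3% together) of all detected probes with a gene symbol. Differences of TUBA1A and TUBB6 therefore depend on which probe is read: as the mean of the detected probes they came to 0.64 and 0.60.

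**Figure D3:**
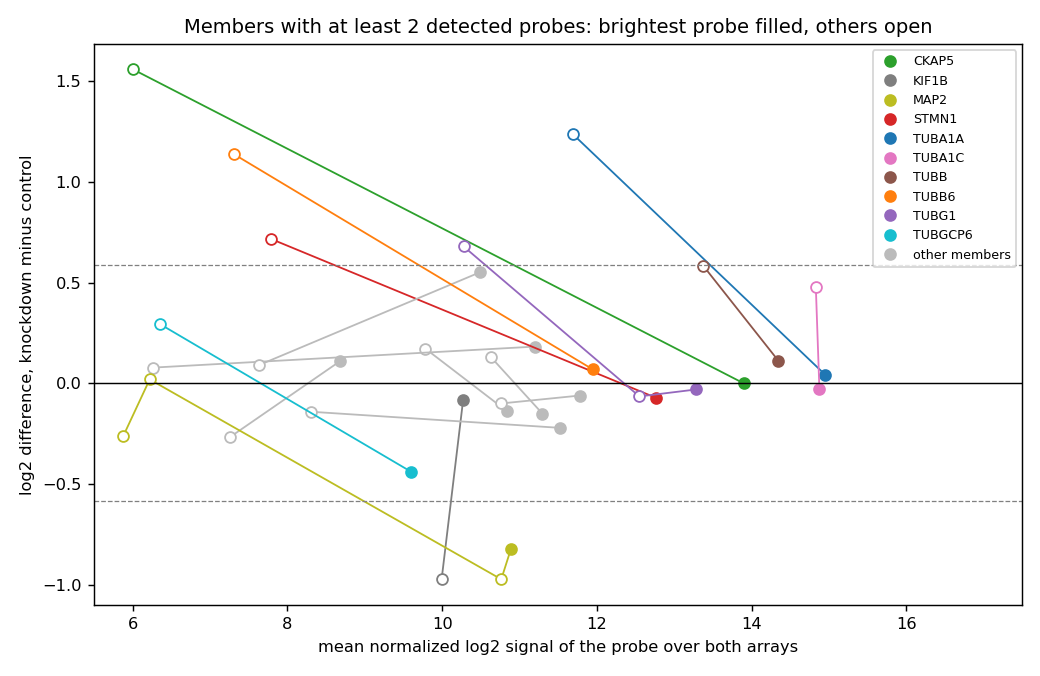
Log2 difference (y axis) against the mean log2 signal of the probe (x axis) for the 17 members with at least 2 detected probes, lines joining probes of the same gene. Filled points are the brightest probe, and dashed lines mark 1.5-fold; the dimmer probes of TUBA1A (1.24) and TUBB6 (1.14) stand far above their bright probes (0.04 and 0.07). The dim CKAP5 probe, detected in the knockdown alone, is drawn at its normalized difference and has only a bound of at least 2.18-fold.

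The gamma tubulins and the complex that nucleates microtubules were all within 1.5-fold by the brightest probe, with 6 of 7 detected and a median of -0.17. Over all detected genes, 16.4% were at least 1.5-fold apart. TUBG1, the main gamma tubulin, had 13.30 in the control and 13.26 in the knockdown, and its paralog TUBG2 had 10.64 and 10.32 (-0.31). Of the complex subunits, TUBGCP2 (0.26) was the highest and TUBGCP6 (-0.44) the lowest, and TUBGCP3 was not detected. A dimmer TUBGCP6 probe went the other way (0.29), so its sign rests on the probe.

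Tubulin cofactors fold and join the subunits into dimers, and all 5 were detected and within 1.5-fold. Of all detected genes, 16.4% were at least 1.5-fold apart. TBCA, which holds beta tubulin, had 14.80 in the control and 14.75 in the knockdown, and TBCB, which holds alpha tubulin, had 13.24 and 13.12. TBCD, which joins them with TBCE and TBCC, was the highest at 0.55, from 10.21 to 10.76, and its dimmer probe gave 0.09. TBCE was the lowest (-0.22) and TBCC differed by 0.18.

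Among the structural MAPs, MAP2 was lower. It stabilizes microtubules in the dendrites of neurons, and here its brightest probe had 11.30 in the control and 10.48 in the knockdown, 1.77-fold lower (-0.82). A second probe of nearly the same signal, annotated to another MAP2 transcript, had 11.25 and 10.28 (-0.97), so the 2 bright probes agree within 0.15. The 2 dim MAP2 probes differed by -0.26 and 0.02. Averaging all 4 gave -0.51, under 1.5-fold. MAP7, which recruits conventional kinesin to microtubules, differed by -0.06 and MAP1S by -0.08. MAP1A, MAP1B, MAP4, MAPT, TPPP and TPPP3 were not detected; MAP4, widely expressed in other cell types, had detection p values of 0.027 and 0.017 at its brighter probe.

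The EB proteins, which track growing plus ends, were detected in full, with 3 negative differences. Over all detected genes, 54.3% had negative differences. MAPRE1, the EB protein of most cells, had 14.47 in the control and 14.33 in the knockdown (-0.14). MAPRE2 differed by -0.15 and MAPRE3 by -0.43. None was past 1.5-fold, against 16.4% of all detected genes.

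Of 14 mitotic kinesins, 12 were detected, and all 12 were within 1.5-fold by the brightest probe. Their median was -0.06, with differences from -0.32 to 0.37. Over all detected genes, 16.4% were at least 1.5-fold apart. KIF11, which pushes the spindle poles apart, had 10.90 in the control and 10.76 in the knockdown, and its second probe turned the sign (0.17). KIFC1, the minus-end motor that focuses the poles, had 12.86 and 12.87. KIF20A, a motor of the central spindle and cytokinesis, had 12.67 and 12.74. The highest was KIF14, which acts in cytokinesis (9.57 and 9.94, 0.37), and the lowest was the chromosome-arm motor KIF22 (12.61 and 12.28, -0.32). The depolymerizing kinesins KIF2A and KIF2C both differed by -0.18, KIF18A, which aligns chromosomes, by -0.32, and the central spindle motor KIF23 by 0.18. KIF4A (0.04), KIF15 (0.00) and KIF20B (-0.11) completed the detected genes, and KIF2B and KIF4B were not detected.

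The other kinesins, which carry cargo, serve cilia or have further roles, were detected for 14 of 27 genes. The 13 detected on both arrays ranged from -0.66 to 0.12. Of the 14, 0 were at least 1.5-fold higher and 3 lower (21.4%), with a median of -0.16. Over all detected genes, 7.24% were higher and 9.20% lower by that much (16.4% together). Of the 13 detected on both arrays, 2 were past 1.5-fold (15.4%), against 13.2% of all genes detected on both arrays. KIF17, a motor of cilia and dendrites, had 6.31 in the control and was not detected in the knockdown, a difference of at least 1.52-fold. KIF3C, which pairs with KIF3A, had 7.42 and 6.77, 1.58-fold lower (-0.66). KIF13A, a motor of endosomes, had 6.62 and 5.97, also 1.58-fold lower (-0.66). All 3 are dim probes, and in the deposited normalized table their differences were -0.44, -0.43 and -0.33, each under 1.5-fold.

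KIF5B, the conventional kinesin heavy chain of most cells, had 10.06 in the control and 10.08 in the knockdown. KIF3B, a subunit of the motor of ciliary transport, had 11.37 and 11.22, and KIF1C, a vesicle motor, was the highest of the 14 at 0.12. KIF13B differed by -0.29, KIF27 by -0.49 and KIFC2 by -0.42, and KIF16B, KIF21A, KIF24 and KIF7 lay between -0.16 and 0.11. KIF1A, KIF3A, KIF5A and KIF5C were among the 13 not detected.

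KIF1B, a motor of mitochondria and synaptic vesicle precursors, gave different answers by probe. The brighter probe had 10.31 in the control and 10.23 in the knockdown (-0.09). Another probe, annotated to a different KIF1B transcript, had 10.48 and 9.51 (-0.97). These probes have similar signals. Of all 2497 genes with such a pair, 6.49% had a gap as large as the 0.89 between them. Whether the transcripts differ was not tested.

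**Figure D4:**
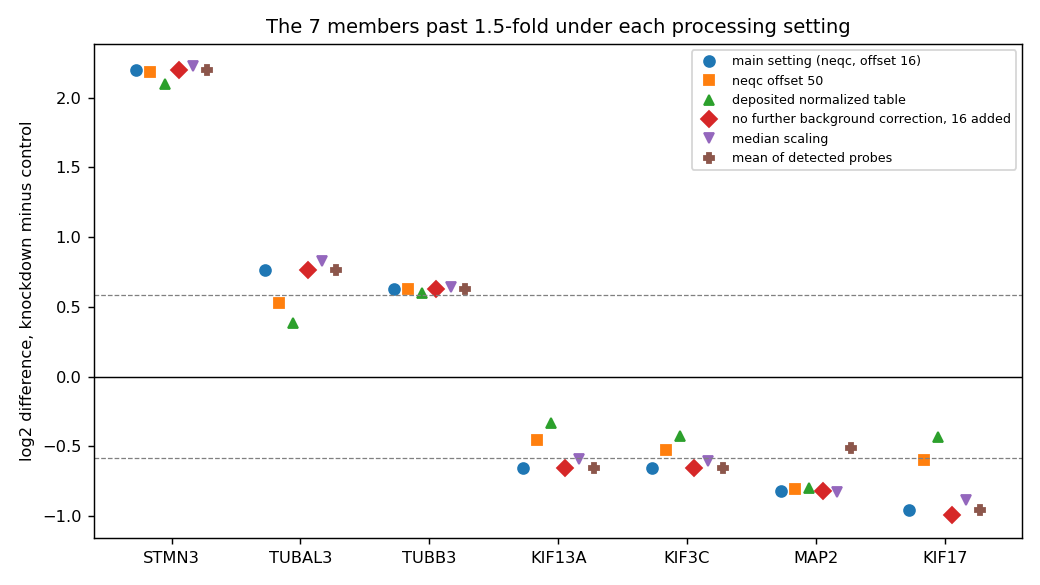
Log2 difference (y axis) of the 7 members that passed 1.5-fold under the main setting and 5 alternatives, with dashed lines at 1.5-fold. STMN3 stays between 2.10 and 2.22 and TUBB3 between 0.60 and 0.64, whereas TUBAL3, KIF13A, KIF3C and KIF17 fall inside 1.5-fold in the deposited normalized table and MAP2 does so when its probes are averaged.

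Other genes that act on microtubules, in 9 lists of 148 genes that are not members, were read for context. Of the 121 detected, 4 were at least 1.5-fold higher and 10 lower (11.6% together, against 16.4% of all genes). With genes detected on 1 array set to their bound, the 10 lower became 9, without MARK4 (10.7% together, against 13.3% of all genes). Of the 121, 79 had a negative difference (65.3%, against 54.3% of all detected genes). The members themselves had 34 negative differences of 58 (58.6%).

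The subunits that link kinesins to cargo went both ways. KLC2, a kinesin light chain, had 7.38 in the control and 8.59 in the knockdown, 2.31-fold higher (1.21), while KLC3, another light chain, had 8.96 and 8.23, 1.66-fold lower (-0.73). Dynein and dynactin, the motor that walks to minus ends and its activator, showed 0 of 20 detected genes past 1.5-fold, against 16.4% of all detected genes. The median of this list was -0.12. Among the 17 chaperonin and prefoldin genes that fold tubulin and actin, PFDN4 was lower (-0.85) and the median was -0.02 by the brightest probes. Dimmer probes of TCP1 (1.83), CCT6A (1.15) and CCT7 (0.97) were higher, against -0.41, -0.11 and 0.16 by the brightest. No dimmer detected probe of this list was at least 1.5-fold lower.

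Of the genes that act at plus ends, CLASP2, a rescue factor, was higher (0.63) and SLAIN1 (-0.63) and SLAIN2 (-1.04), which bind CKAP5, were lower. SLAIN2 had 7.24 in the control and 6.19 in the knockdown, 2.06-fold lower. At minus ends and nucleation sites, CAMSAP3, which caps minus ends in epithelial cells, was detected in the knockdown alone and at least 1.51-fold higher, HAUS1 was higher (0.60) and NINL lower (-0.63). The severing list had 7 of 7 detected genes with negative differences by the brightest probe, against 54.3% of all detected genes. Its median was -0.32, and 0 were past 1.5-fold, against 16.4% of all detected genes. A dimmer FIGNL1 probe went the other way (0.11, against -0.08 by the brightest).

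TACC1, which binds CKAP5 and microtubules, was the lowest gene of these lists, with 11.10 in the control and 9.88 in the knockdown, 2.33-fold lower (-1.22). It was the only 1 of 12 spindle MAPs past 1.5-fold by the brightest probe, and the median of that list was -0.09. A dim NUMA1 probe gave 1.05, against -0.05 by the brightest. In other lists, dimmer probes of MZT1 (-0.62) and ATAT1 (-0.64) were lower, against -0.07 and -0.13 by the brightest. Among enzymes that modify tubulin, TTLL1, part of a polyglutamylase, was lower (-0.63, or -0.30 by another probe). Of 17 other detected MAPs, 14 had negative differences (82.4%, against 54.3% of all detected genes). MAP7D2 (-0.61) and EML2 (-0.60) were at least 1.5-fold lower. MARK4, a kinase that phosphorylates MAPs, is also counted among the 10 lower genes above, but it was detected in the control alone and its bound is only at least 1.05-fold lower.

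**Figure D5:**
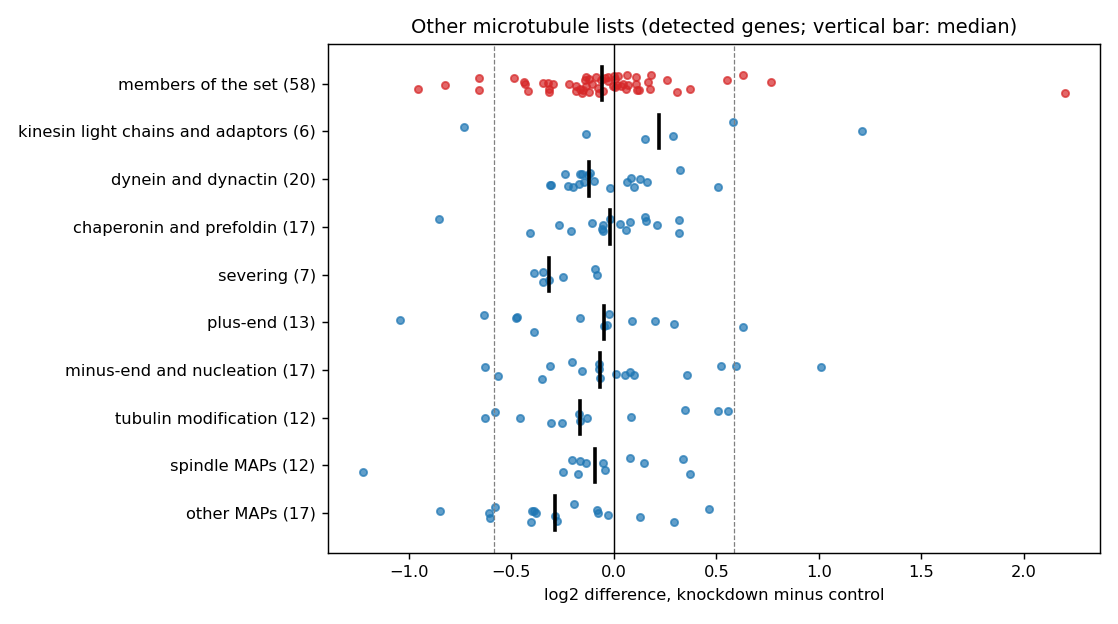
Log2 difference (x axis) of every detected gene in the microtubule set (58 genes, top row) and in 9 further lists of microtubule genes, each point a gene and each vertical bar a median; numbers of genes are in parentheses and dashed lines mark 1.5-fold. Genes detected on 1 array are drawn at their normalized difference, and the medians lie between -0.32 for the severing list and 0.22 for kinesin light chains and adaptors.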

How the data were processed

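The authors deposited a non-normalized table of probe intensity on a linear scale and, beside each signal, its detection p-value, per the file headers. A background level had been subtracted: 12861 of 47323 probes in the control and 12895 in the knockdown are below 0. A further deposited intensity table holds quantile-normalized linear values. The software is not given in the sources used here, and the number of arrays (1 per group) limits the precision.

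Log2 signals were computed with neqc of limma 3.58.1 in R 4.3.3 (normal-exponential background correction, offset 16, quantile normalization); the offset pulls folds of dim probes towards 1. The platform annotation, matched to RefSeq by Entrez identifier, gives 1 symbol for 30113 probes. Each gene was read at its brightest probe over both arrays. It counted as past 2-fold or 1.5-fold if that probe was detected (p under 0.01) in the group where it was higher, by its normalized difference. For a probe detected in 1 group only, the fold is written "at least" and divides the detected signal by the dim signal or by the lowest detected signal of the dim array, whichever is higher. The scripts were tested on simulated data that held less noise than the spread between probes. Only brighter genes detected on both arrays were changed there, so the test does not cover calls of dim probes.

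The members, role groups and lists were chosen with earlier results of these data known. Named are members past 1.5-fold, for each role group the 2 members with the brightest probes and the highest and lowest difference, all stathmins, members whose probes lie over 1 apart, and listed genes past 1.5-fold; further members and markers were named after their values were seen. The motifs were also chosen then.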

Additional observations from a re-analysis of the deposited data

How the results depend on the processing

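The count of members at least 2-fold higher (1, STMN3) and lower (0) was the same under all 9 alternatives, and the median over the members stayed between -0.06 and -0.03. At 1.5-fold, the 3 higher members became 6 with the mean of detected probes, which added TUBA1A, TUBB6 and CKAP5; CKAP5 enters through a probe not detected in the control, and with that probe at its bound its mean is 0.56, under 1.5-fold. With genes detected on 1 array set to their bound, an alternative added after seeing the data, the 3 higher and 4 lower members were the same. The 4 lower members became 2 with an offset of 50 (KIF17 and MAP2) and 1 in the deposited normalized table (MAP2). An offset of 50 pulls dim probes together by construction. The deposited normalized table holds higher values for dim probes: TUBAL3 in the control was 42.5 before normalization and 144.9 there. The part of this in its smaller differences was not tested. STMN3 and TUBB3 were past 1.5-fold under all 9 alternatives. Both have 1 probe, detected on both arrays, so alternatives that change the probe, the detection filter or the gene set could not move their values. Only the other ways of normalizing the same arrays could. Under those TUBB3 lay between 0.60 and 0.64, close to the log2 threshold of 0.585. KIF5A joined the lower members at a detection p under 0.05 and with no detection filter, making 5. Of 170 recomputed differences of 34 named members, 9 moved by the SD per probe (0.32) or more and 0 of those past 1.5-fold changed sign. Dim probes have the least certain differences. No paired analysis was possible because there is a single array of each kind, and for the same reason no replicate could be left out.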
